A study of Mus musculus with 8 samples.

Results

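The 59 genes described here are taken by symbol and act in 2 phases of the cell division cycle. The 29 replication genes license and copy DNA or supply its building blocks, and the 30 mitosis genes drive chromosome segregation and cell division. All 59 were found among the 55487 genes counted, and all 59 passed the filter on low counts that left 15056 genes for testing. Pcna, the sliding clamp of the replication fork, and Mki67, a coat protein of mitotic chromosomes, are the usual markers of cycling cells. Both belong to the 59 and were detected in all 8 libraries, which is no check on the identity of the other genes.

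Polyadenylated RNA of sciatic nerves, taken on postnatal day 6, was sequenced in 4 CNP-Cdk7cKO libraries (CNPcre/+ Cdk7lox/lox) and 4 Ctrl libraries (CNP+/+ Cdk7lox/lox). Both groups carry floxed alleles of Cdk7, a kinase that switches on the cyclin-dependent kinases of the cell cycle and also phosphorylates RNA polymerase II. The CNP-Cdk7cKO mice in addition carry Cre at one Cnp allele, which deletes Cdk7 in Schwann cells, the glia of peripheral nerve, so that they also have one unmodified Cnp allele fewer than Ctrl mice. Whether the libraries of a group come from different mice is not stated in the labels, so the p-values rest on the spread of these libraries, some of which may be technical.

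In G1 a cell loads the Mcm2 to Mcm7 helicase onto replication origins, and E2F factors switch on the genes of DNA synthesis as it leaves G1. Genes of mitosis follow later, held down by the DREAM complex and switched on by the MYBL2-MuvB complex and Foxm1. These act largely through a promoter element called the cell cycle genes homology region (CHR). Promoters of mitosis genes often hold CCAAT boxes as well. In the first postnatal week Schwann cells stop dividing as they form myelin, while fibroblasts, endothelial cells and macrophages of the growing nerve can also divide. A bulk library cannot tell a smaller share of dividing cells from less RNA per cell.

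The promoters of both phases are shown because they hold different letters. RefSeq promoter windows of GRCm38.p6, running from 250 bases before to 50 bases after each gene's start, were listed for 24 of the 29 replication genes and 25 of the 30 mitosis genes. They were searched on both strands for TTTGAA (CHR), CCAAT, and the E2F letters TTTGGCGC, TTTCCCGC and TTTCGCGC. Matches of the same motif that overlap were counted separately, and matches of different motifs overlapped in 2 windows of these genes. Capitals mark every match below, read on the strand of the gene, so that ATTGG is CCAAT on the other strand. Rfc3 (chr5:151651159-151651458, minus strand) and Mcm6 (chr1:128359656-128359955, minus strand) stand for replication. Mki67 (chr7:135716330-135716629, minus strand), Cdk1 (chr10:69352863-69353162, minus strand) and Cdc20 (chr4:118437294-118437593, minus strand) stand for mitosis.
Rfc3: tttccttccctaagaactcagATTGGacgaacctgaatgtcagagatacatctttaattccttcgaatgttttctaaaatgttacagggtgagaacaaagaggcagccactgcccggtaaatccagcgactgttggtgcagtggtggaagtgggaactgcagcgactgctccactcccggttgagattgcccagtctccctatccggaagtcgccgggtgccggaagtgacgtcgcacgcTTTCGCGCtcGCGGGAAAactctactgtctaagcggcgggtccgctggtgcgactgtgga
Mcm6: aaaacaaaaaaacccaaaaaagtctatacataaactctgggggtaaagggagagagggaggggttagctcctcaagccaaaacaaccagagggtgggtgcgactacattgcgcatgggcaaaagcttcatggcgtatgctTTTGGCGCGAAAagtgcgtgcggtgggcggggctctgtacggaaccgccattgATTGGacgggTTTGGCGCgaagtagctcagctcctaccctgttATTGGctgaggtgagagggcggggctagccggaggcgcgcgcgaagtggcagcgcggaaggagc
Mki67: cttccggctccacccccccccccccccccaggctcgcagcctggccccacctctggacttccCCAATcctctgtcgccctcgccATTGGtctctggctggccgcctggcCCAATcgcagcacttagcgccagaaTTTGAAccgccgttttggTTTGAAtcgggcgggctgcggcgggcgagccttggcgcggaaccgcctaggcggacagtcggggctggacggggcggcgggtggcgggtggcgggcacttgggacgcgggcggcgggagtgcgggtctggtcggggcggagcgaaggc
Cdk1: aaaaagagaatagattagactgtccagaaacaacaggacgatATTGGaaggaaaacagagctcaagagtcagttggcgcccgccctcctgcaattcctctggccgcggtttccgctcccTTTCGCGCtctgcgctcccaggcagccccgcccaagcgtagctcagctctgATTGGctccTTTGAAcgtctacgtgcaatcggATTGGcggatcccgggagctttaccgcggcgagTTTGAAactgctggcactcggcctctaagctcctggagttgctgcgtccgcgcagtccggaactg
Cdc20: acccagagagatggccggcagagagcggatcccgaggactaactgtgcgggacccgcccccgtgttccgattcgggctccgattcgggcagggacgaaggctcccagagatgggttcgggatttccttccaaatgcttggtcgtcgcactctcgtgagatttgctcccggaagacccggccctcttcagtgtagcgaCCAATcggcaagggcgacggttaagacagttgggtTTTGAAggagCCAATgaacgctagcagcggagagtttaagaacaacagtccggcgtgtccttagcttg

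The E2F letters were in 11 of 24 replication promoters (45.8%) and in 1 of 25 mitosis promoters (4%), that of Cdk1, against 2.12% of 27025 genes in the promoter table. Mcm6 held 3 matches of the E2F letters and Rfc3 held 2. TTTGAA was in 19 of 25 mitosis promoters (76%) and in 4 of 24 replication promoters (16.7%), against 20.2% of all genes. In Cdc20 it began 18 bases before the start, and Mki67 and Cdk1 held 2 matches each. CCAAT was in 80% of mitosis promoters, 62.5% of replication promoters and 41.1% of all genes. TTTGAA and CCAAT stood together in 68% of mitosis promoters, 12.5% of replication promoters and 7.97% of all genes. A match describes the letters of the window and is not evidence of binding.

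**Figure D1:**
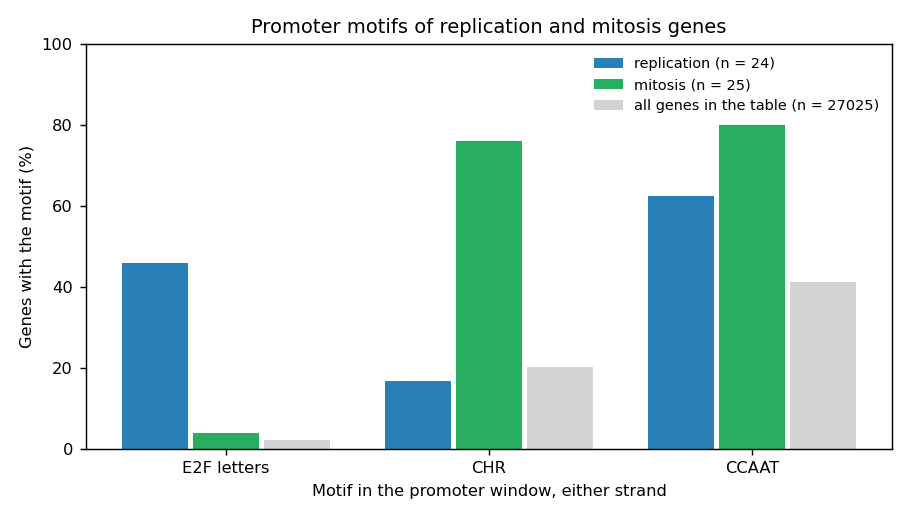
Percent of genes whose promoter window holds the E2F letters, TTTGAA (CHR) or CCAAT on either strand, for 24 replication genes, 25 mitosis genes and 27025 genes of the promoter table. E2F letters stand out in the replication genes (45.8%) and TTTGAA in the mitosis genes (76%), while both groups exceed all genes for CCAAT.

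Library sizes ranged between 18911414 and 20486878 estimated counts in CNP-Cdk7cKO and between 16897242 and 21527891 in Ctrl. Cdk7 was measured at 9.62, 11.8, 12.7 and 12.1 CPM (counts scaled to a common library size) in CNP-Cdk7cKO libraries 1 to 4, against 21.7, 22.2, 21.4 and 20.6 CPM in Ctrl libraries 1 to 4, and the groups did not overlap (log2 fold change -0.89 ± 0.09 SE, edgeR adjusted p = 0.000181). By Xist and Y-linked genes the 4 CNP-Cdk7cKO libraries and Ctrl 1 are female, and Ctrl 2, 3 and 4 are male. The 12 skeletal muscle markers summed to between 98.2 and 612 CPM in CNP-Cdk7cKO and between 548 and 5412 CPM in Ctrl. The 7 Schwann cell markers used here summed to between 2899 and 3192 CPM in CNP-Cdk7cKO and between 3921 and 4219 CPM in Ctrl, with no overlap. The part of sex, muscle and cell type in the values below was not tested beyond the alternatives in the closing section. CPM values use library sizes scaled by the trimmed mean of M values, and the 4 values of a group are given in the order of libraries 1 to 4.

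No gene of either phase passed the test between the groups. By edgeR's quasi-likelihood test at an adjusted p under 0.05, 0 of the 59 genes were called higher in CNP-Cdk7cKO and 0 lower. Over all 15056 genes 11.7% were called, 5.07% as higher and 6.6% as lower. At an unadjusted p under 0.05 there were 2 replication genes (Tyms and Rfc3, 6.9%) and 1 mitosis gene (Cdc20, 3.33%), against 3934 of all genes (26.1%). Limma-voom and DESeq2 also called 0 of the 59. The 4 CNP-Cdk7cKO and 4 Ctrl values overlapped for all 59 genes, whereas 18.8% of all genes had no overlap.

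In the fit without a covariate the fold changes were small and closely bounded. The median log2 fold change was 0.06 for replication genes and -0.02 for mitosis genes, against 0.00 for all tested genes. With a muscle covariate these medians were -0.03 and -0.24, and with sex as a covariate 0.16 and 0.07. In either fit 0 of the 59 genes were called, but few genes of any kind were. Over all genes the muscle covariate left 103 higher and 145 lower, and the sex covariate 78 and 166. Fold changes without a covariate lay between -0.34 for Mcm10 and 0.32 for Rfc3, with a median SE of 0.12. The 95% interval lay within -1 and 1 for all 59 genes and within -0.5 and 0.5 for 50 of them, so a change of 2-fold lay outside every interval. The lowest bound was -0.69 and the highest 0.61, so changes smaller than these bounds are compatible with the data. These intervals hold for the fit without a covariate. Over the 17 alternatives in the closing section, estimates reached -0.73 for Ndc80 and 0.48 for Rfc3.

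**Figure D2:**
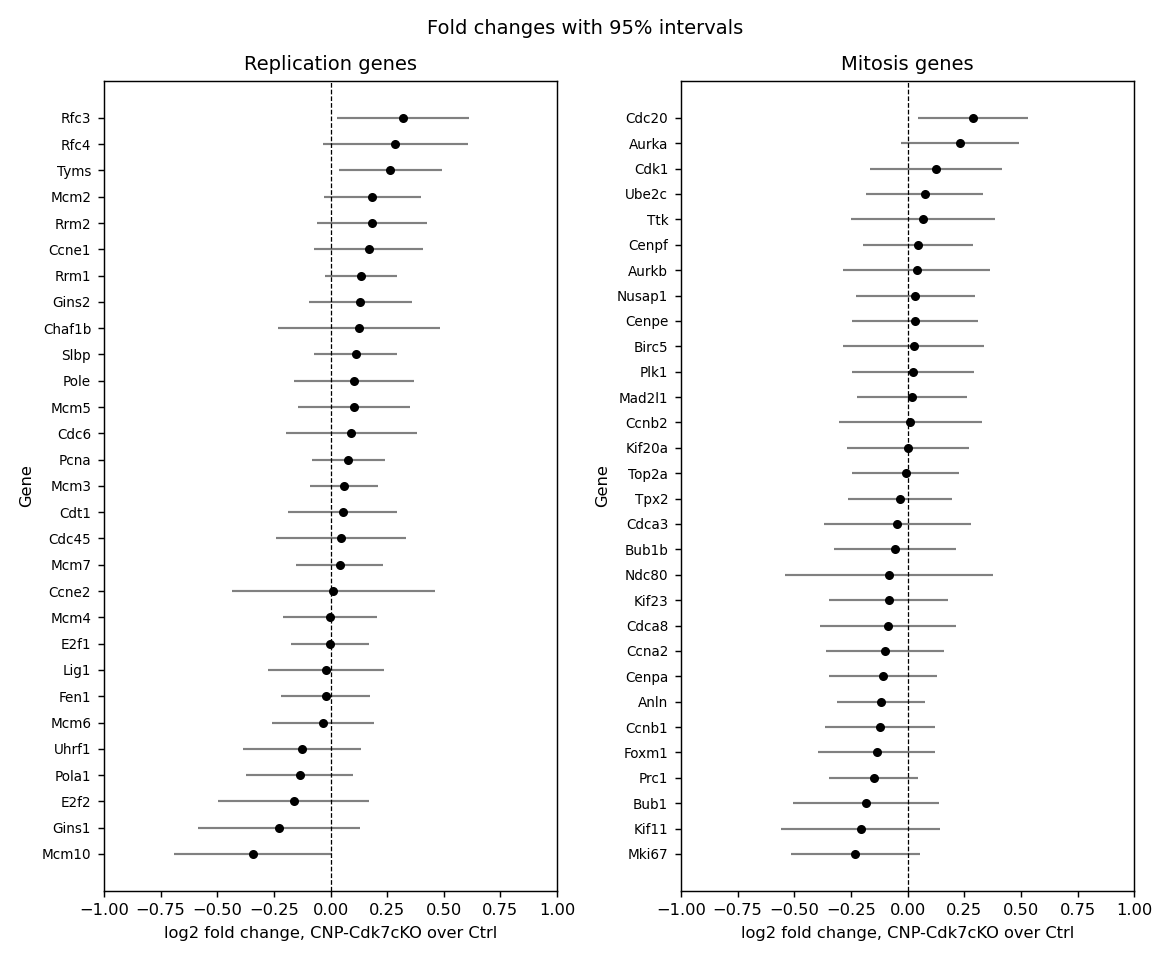
Log2 fold change of CNP-Cdk7cKO over Ctrl for the 29 replication genes (left) and 30 mitosis genes (right), ordered by value. Points are edgeR estimates from 4 libraries a group and lines their 95% intervals. All intervals lie within -1 and 1, and those of Rfc3, Tyms and Cdc20 lie above 0 before adjustment.

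Pcna had 73.2, 66.2, 84.6 and 80.8 CPM in CNP-Cdk7cKO, against 72.9, 75.6, 68.0 and 72.1 CPM in Ctrl. CNP-Cdk7cKO 3 and 4 were above every Ctrl library and CNP-Cdk7cKO 2 was below every one. The means were 76.2 ± 8.18 and 72.2 ± 3.18 CPM (SD, n = 4 each), and the log2 fold change of 0.08 ± 0.07 SE did not pass (edgeR adjusted p = 0.54). Pcna (ENSMUSG00000027342) has a processed copy, Pcna-ps2, with 12.2% as many estimated counts, and how reads were shared between the pair is uncertain. Per kilobase of exon, Pcna had the highest level of the 59 genes, at 31.8 ± 3.41 CPM per kb in CNP-Cdk7cKO and 30.1 ± 1.33 CPM per kb in Ctrl.

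Among the helicase and origin genes, Mcm2, a subunit of the replicative helicase, had 38.8, 38.8, 52.1 and 46.7 CPM in CNP-Cdk7cKO, against 35.9, 38.1, 38.1 and 43.1 CPM in Ctrl. CNP-Cdk7cKO 3 and 4 exceeded all Ctrl libraries and the others lay inside the Ctrl range. The log2 fold change was 0.18 ± 0.10 SE (edgeR adjusted p = 0.26). Mcm10, which helps to activate the helicase, had 4.71, 3.82, 6.14 and 5.74 CPM in CNP-Cdk7cKO, against 5.81, 7.08, 6.01 and 6.92 CPM in Ctrl. All CNP-Cdk7cKO libraries but the third lay below every Ctrl library. Its log2 fold change of -0.34 ± 0.16 SE was the lowest of the 59 and did not pass (edgeR adjusted p = 0.20). Per kilobase of exon Mcm10 was also the lowest of all members, at 0.66 ± 0.14 CPM per kb in CNP-Cdk7cKO and 0.84 ± 0.08 CPM per kb in Ctrl.

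Gins1, part of the GINS complex of the moving helicase, had 3.16, 3.00, 4.59 and 3.63 CPM in CNP-Cdk7cKO, against 4.35, 3.72, 4.32 and 4.44 CPM in Ctrl, and 3 CNP-Cdk7cKO libraries were below every Ctrl library. Its partner Gins2 had 14.6, 13.5, 17.2 and 17.6 CPM in CNP-Cdk7cKO, against 13.5, 13.1, 16.0 and 14.8 CPM in Ctrl. For Gins2, CNP-Cdk7cKO 3 and 4 were instead above every Ctrl library. Mcm6, whose promoter holds 3 matches of the E2F letters, had 35.0, 34.5, 45.0 and 42.8 CPM in CNP-Cdk7cKO, against 36.2, 38.2, 39.6 and 46.7 CPM in Ctrl, and CNP-Cdk7cKO 1 and 2 were the lowest libraries. The helicase subunits Mcm3, Mcm4, Mcm5 and Mcm7 ranged over 33.4 to 39.5, 28.3 to 39.2, 31.8 to 44.4 and 43.3 to 53.6 CPM in CNP-Cdk7cKO, against 32.3 to 36.6, 30.8 to 33.6, 30.6 to 37.5 and 42.9 to 53.3 CPM in Ctrl. In each of them CNP-Cdk7cKO 3 was the highest of all 8 libraries. The helicase loaders Cdc6 and Cdt1 ranged over 5.59 to 6.38 and 14.4 to 20.3 CPM in CNP-Cdk7cKO, against 4.60 to 6.49 and 15.7 to 17.1 CPM in Ctrl, and Cdc45, which rides with the helicase, over 6.19 to 8.18 CPM in CNP-Cdk7cKO and 6.24 to 8.03 CPM in Ctrl.

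At the fork, Rfc3 and Rfc4 are subunits of the clamp loader that places Pcna on DNA. Rfc3, whose promoter is printed above, had 15.8, 16.6, 21.0 and 20.5 CPM in CNP-Cdk7cKO, against 13.2, 13, 14.2 and 18.7 CPM in Ctrl. Ctrl 4 stood above the other Ctrl libraries and inside the CNP-Cdk7cKO range, and CNP-Cdk7cKO 3 and 4 were the highest. The means were 18.5 ± 2.63 and 14.8 ± 2.65 CPM (SD, n = 4 each), with a log2 fold change of 0.32 ± 0.13 SE (edgeR adjusted p = 0.15). Without Ctrl 4 the log2 fold change was 0.45 and passed (edgeR adjusted p = 0.0291).

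Rfc4 had 7.66, 7.44, 10.6 and 9.32 CPM in CNP-Cdk7cKO, against 7.90, 5.79, 7.23 and 7.80 CPM in Ctrl. As for Rfc3, CNP-Cdk7cKO 3 and 4 were above all Ctrl libraries. Its log2 fold change was 0.29 ± 0.14 SE (edgeR adjusted p = 0.24). Pola1, the primase-associated polymerase, had 6.88, 7.25, 7.83 and 8.64 CPM in CNP-Cdk7cKO, against 7.53, 8.79, 8.73 and 8.53 CPM in Ctrl, so that CNP-Cdk7cKO 1 and 2 were below all Ctrl libraries. Pole, the leading strand polymerase, ranged over 11.4 to 14.8 CPM in CNP-Cdk7cKO and 10.5 to 14.5 CPM in Ctrl. Fen1 and Lig1, which process and join Okazaki fragments, ranged over 16.1 to 20.3 and 29.7 to 41.1 CPM in CNP-Cdk7cKO, against 16.4 to 19.7 and 30.5 to 41.5 CPM in Ctrl, spans of similar width. Chaf1b, which helps to place histones on new DNA, ranged more widely in CNP-Cdk7cKO, over 9.62 to 15.7 CPM, than in Ctrl, over 9.93 to 13.7 CPM.

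Nucleotide supply is represented by Tyms, which makes thymidylate, and by the ribonucleotide reductase subunits Rrm1 and Rrm2. Tyms had 14.0, 14.4, 18.7 and 17.6 CPM in CNP-Cdk7cKO, against 12.7, 12.9, 14.2 and 14.0 CPM in Ctrl. CNP-Cdk7cKO 1 lay within the Ctrl range and the other CNP-Cdk7cKO libraries above it. Its log2 fold change of 0.26 ± 0.10 SE had the smallest adjusted p of the replication genes, which did not pass (edgeR, 0.13). Rrm2 had 30.7, 27.8, 40.8 and 37.5 CPM in CNP-Cdk7cKO, against 28.7, 29.5, 28.8 and 33.5 CPM in Ctrl. CNP-Cdk7cKO 3 and 4 were again highest, and Ctrl 4 was high among Ctrl libraries. Rrm1 ranged over 49.7 to 62.6 CPM in CNP-Cdk7cKO and 48.0 to 54.7 CPM in Ctrl, with 3 CNP-Cdk7cKO libraries above every Ctrl library.

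Regulators of S phase entry also overlapped between the groups. E2f1, an activator of replication genes, had 19.8, 19.4, 23.5 and 22.4 CPM in CNP-Cdk7cKO, against 20.4, 23.4, 20.8 and 20.6 CPM in Ctrl. CNP-Cdk7cKO 1 and 2 were the lowest libraries, and Ctrl 2 was nearly as high as CNP-Cdk7cKO 3. Ccne2, an S phase cyclin, was the most variable replication gene in CNP-Cdk7cKO, at 6.98, 5.85, 8.33 and 4.17 CPM, against 4.84, 7.39, 6.80 and 6.00 CPM in Ctrl. It departed from the pattern of the other genes in that CNP-Cdk7cKO 4 was its lowest library. Uhrf1, which binds hemimethylated DNA and recruits Dnmt1 to it, had 40.5, 32.9, 53.2 and 42.9 CPM in CNP-Cdk7cKO, against 44.4, 42.8, 48.2 and 49.3 CPM in Ctrl, and was highest in CNP-Cdk7cKO 3 and lowest in CNP-Cdk7cKO 2. E2f2, Ccne1 and Slbp, which binds histone mRNA, ranged over 6.31 to 10.8, 9.05 to 11.7 and 22.3 to 28.6 CPM in CNP-Cdk7cKO, against 8.58 to 10.7, 8.32 to 10.1 and 21.3 to 24.5 CPM in Ctrl. For E2f2, 3 CNP-Cdk7cKO libraries lay below all Ctrl libraries.

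Among mitosis genes, Mki67 had 56.6, 47.0, 75.6 and 71.5 CPM in CNP-Cdk7cKO, against 67.7, 69.9, 81.8 and 74.6 CPM in Ctrl. CNP-Cdk7cKO 1 and 2 were below every Ctrl library and CNP-Cdk7cKO 3 and 4 lay within the Ctrl range. The means were 62.7 ± 13.3 and 73.5 ± 6.23 CPM (SD, n = 4 each). The log2 fold change of -0.23 ± 0.13 SE was the lowest of the mitosis genes and did not pass (edgeR adjusted p = 0.29). With a muscle covariate the log2 fold changes of Mki67 and Pcna were -0.52 and -0.10, and that of Pcna had turned its sign.

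Cdc20, the activator of the anaphase-promoting complex, had 44.3, 39.4, 58.2 and 55.5 CPM in CNP-Cdk7cKO, against 38.6, 38.4, 42.1 and 42.2 CPM in Ctrl. CNP-Cdk7cKO 1, 3 and 4 were above every Ctrl library and CNP-Cdk7cKO 2 was within their range. The means were 49.3 ± 8.93 and 40.3 ± 2.15 CPM (SD, n = 4 each), with a log2 fold change of 0.29 ± 0.11 SE. This had the smallest adjusted p of the 59 genes (edgeR, 0.12), and without CNP-Cdk7cKO 2 it passed, at a log2 fold change of 0.38 (edgeR adjusted p = 0.0287). With a muscle covariate the log2 fold change of Cdc20 was 0.06. Per kilobase of exon Cdc20 was second to Pcna, at 26.4 ± 4.78 CPM per kb in CNP-Cdk7cKO and 21.6 ± 1.15 CPM per kb in Ctrl. Ube2c, the ubiquitin-conjugating enzyme of the same complex, had 25.7, 20.5, 31.3 and 30.7 CPM in CNP-Cdk7cKO, against 24.4, 23.9, 27.4 and 26.9 CPM in Ctrl, so CNP-Cdk7cKO 3 and 4 were high and CNP-Cdk7cKO 2 low. Exons of Ube2c overlap the muscle gene Tnnc2 on the opposite strand over 22.8% of their length, and Tnnc2 ranged over 5.69 to 34.1 CPM in CNP-Cdk7cKO and 32.7 to 229 CPM in Ctrl; its part in the Ube2c values was not tested.

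Aurka, a kinase of the spindle poles, had 10.7, 9.52, 13.1 and 12.8 CPM in CNP-Cdk7cKO, against 9.0, 10.9, 9.71 and 9.61 CPM in Ctrl. CNP-Cdk7cKO 3 and 4 were above all Ctrl libraries. Its log2 fold change was 0.23 ± 0.12 SE (edgeR adjusted p = 0.25). Aurkb, the kinase of the chromosomal passenger complex, had 20.7, 16.6, 29.2 and 23.2 CPM in CNP-Cdk7cKO, against 18.5, 21.4, 23.8 and 23.6 CPM in Ctrl. Plk1, a kinase of mitotic entry and spindle assembly, had 26.5, 18.8, 30.0 and 28.1 CPM in CNP-Cdk7cKO, against 22.8, 25.8, 26.4 and 26.5 CPM in Ctrl. For both kinases CNP-Cdk7cKO 2 was the lowest and CNP-Cdk7cKO 3 the highest of all 8 libraries.

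Cdk1, the kinase that triggers mitosis, had 31.3, 29.0, 42.4 and 43.7 CPM in CNP-Cdk7cKO, against 29.0, 32.3, 36.4 and 36.3 CPM in Ctrl. Its partner Ccnb1 had 23.5, 20.1, 30.3 and 24.2 CPM in CNP-Cdk7cKO, against 25, 25.6, 30.0 and 25.9 CPM in Ctrl. The kinase was highest in CNP-Cdk7cKO 3 and 4, whereas for the cyclin 3 CNP-Cdk7cKO libraries were below every Ctrl library. Top2a, which untangles chromosomes, had 62.3, 51.0, 77.3 and 69.4 CPM in CNP-Cdk7cKO, against 60.2, 63.0, 69.2 and 68.8 CPM in Ctrl. Foxm1, a transcription factor of mitosis genes, had 44.4, 33.2, 47.0 and 42.4 CPM in CNP-Cdk7cKO, against 40.3, 41.5, 54.6 and 46.9 CPM in Ctrl. CNP-Cdk7cKO 2 was the lowest of all libraries for both, but the highest for Foxm1 was Ctrl 3. The cyclins Ccna2 and Ccnb2 ranged over 33.5 to 53.6 and 14.5 to 25.7 CPM in CNP-Cdk7cKO, against 43.2 to 51.0 and 18.7 to 21.6 CPM in Ctrl.

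Of the kinetochore, spindle and cleavage genes, Ndc80, which ties kinetochores to microtubules, varied most, at 7.97, 6.33, 13.5 and 11.5 CPM in CNP-Cdk7cKO, against 11.2, 8.69, 11.7 and 9.95 CPM in Ctrl. Its highest CNP-Cdk7cKO library was 2.13-fold over its lowest. Prc1, a crosslinker of the central spindle, had 37.7, 32.2, 44.9 and 41.3 CPM in CNP-Cdk7cKO, against 40.3, 43.9, 44.7 and 44.1 CPM in Ctrl. Prc1 had a log2 fold change of -0.15 ± 0.09 SE (edgeR adjusted p = 0.32). Anln, a scaffold of the cleavage furrow, had 20.7, 19.2, 25.8 and 21.0 CPM in CNP-Cdk7cKO, against 25, 23.5, 23.7 and 22.0 CPM in Ctrl, so that all CNP-Cdk7cKO libraries but the third were below Ctrl. Anln had a log2 fold change of -0.12 ± 0.09 SE (edgeR adjusted p = 0.44).

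The spindle checkpoint genes Bub1, Bub1b, Ttk and Mad2l1 ranged over 6.43 to 8.98, 13.6 to 21.7, 4.74 to 6.43 and 17.4 to 25 CPM in CNP-Cdk7cKO, against 7.16 to 9.67, 17.3 to 19.8, 4.65 to 6.43 and 19.6 to 23.4 CPM in Ctrl. The spindle motors Kif11, Kif20a and Kif23 ranged over 13.4 to 24.5, 20.8 to 31.5 and 12.1 to 19.0 CPM in CNP-Cdk7cKO, against 18.7 to 24.5, 24.0 to 31.1 and 16.1 to 17.6 CPM in Ctrl. In each of these the low end of CNP-Cdk7cKO is library 2. The centromere genes Cenpa, Cenpe and Cenpf ranged over 17.5 to 23.4, 10.4 to 16.0 and 15.9 to 22.5 CPM in CNP-Cdk7cKO, against 19.3 to 25.7, 11.7 to 14.8 and 16.1 to 20.5 CPM in Ctrl. Birc5 and Cdca8, of the chromosomal passenger complex, ranged over 16.2 to 27.1 and 13.6 to 21.9 CPM in CNP-Cdk7cKO, against 18.4 to 25.2 and 17.5 to 20.3 CPM in Ctrl. Spans were about as wide in both groups for Bub1, Cenpa and Ttk and wider in CNP-Cdk7cKO for the others. Cdca3 ranged over 22.2 to 35.0 CPM, and the microtubule-binding Nusap1 and Tpx2 over 18.2 to 27.5 and 24.7 to 36.5 CPM, in CNP-Cdk7cKO, against 26.1 to 34.2, 20.4 to 24.0 and 30.1 to 34.5 CPM in Ctrl.

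**Figure D3:**
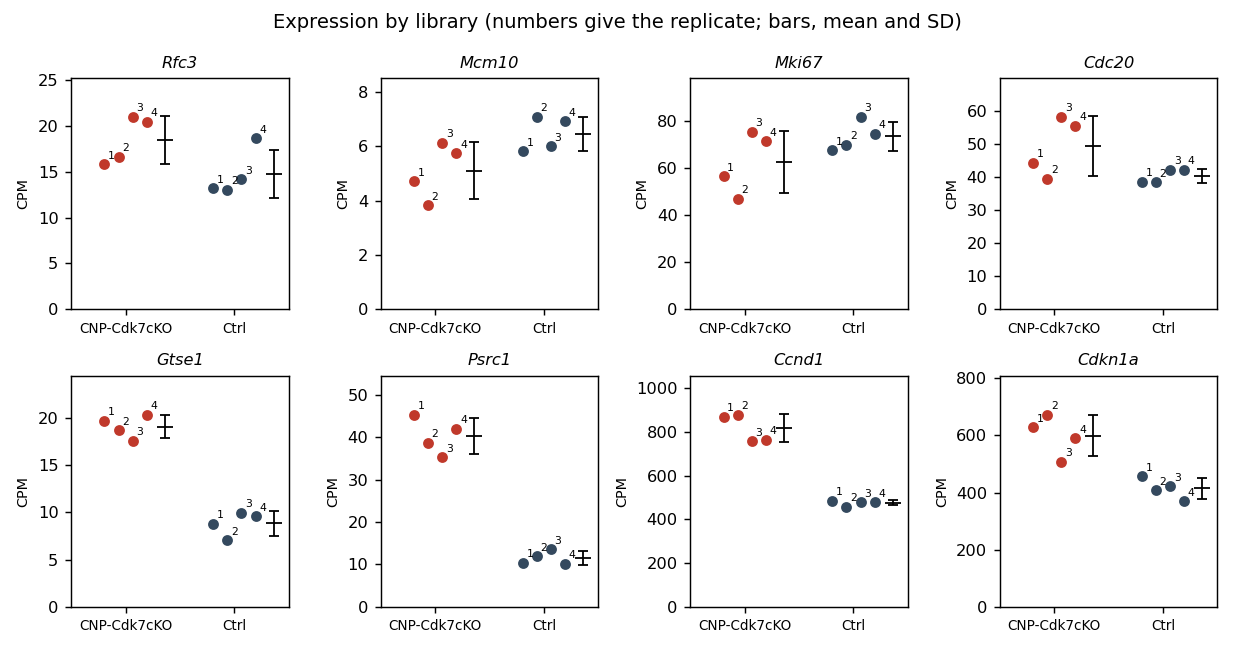
CPM of 4 member genes (top row) and 4 further cell cycle genes (bottom row) in each library, with CNP-Cdk7cKO left of Ctrl in every panel. Points are libraries numbered by replicate and bars the mean and SD of 4. The groups overlap for Rfc3, Mcm10, Mki67 and Cdc20 and do not overlap for Gtse1, Psrc1, Ccnd1 and Cdkn1a.

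Viewed library by library, most of the variation lay within CNP-Cdk7cKO. The level of a phase in a library was taken as the mean log2 CPM of its genes minus the mean of the 4 Ctrl libraries. For replication genes the level was -0.08, -0.13, 0.26 and 0.13 in CNP-Cdk7cKO 1 to 4, against -0.09, -0.04, 0.05 and 0.08 in Ctrl 1 to 4. For mitosis genes it was -0.10, -0.38, 0.22 and 0.11 in CNP-Cdk7cKO, against -0.10, -0.07, 0.12 and 0.05 in Ctrl. In both phases CNP-Cdk7cKO 3 and 4 stood above most or all Ctrl libraries and CNP-Cdk7cKO 2 below all of them. The SD over libraries was 0.18 in CNP-Cdk7cKO and 0.08 in Ctrl for replication, and 0.26 in CNP-Cdk7cKO and 0.10 in Ctrl for mitosis.

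**Figure D4:**
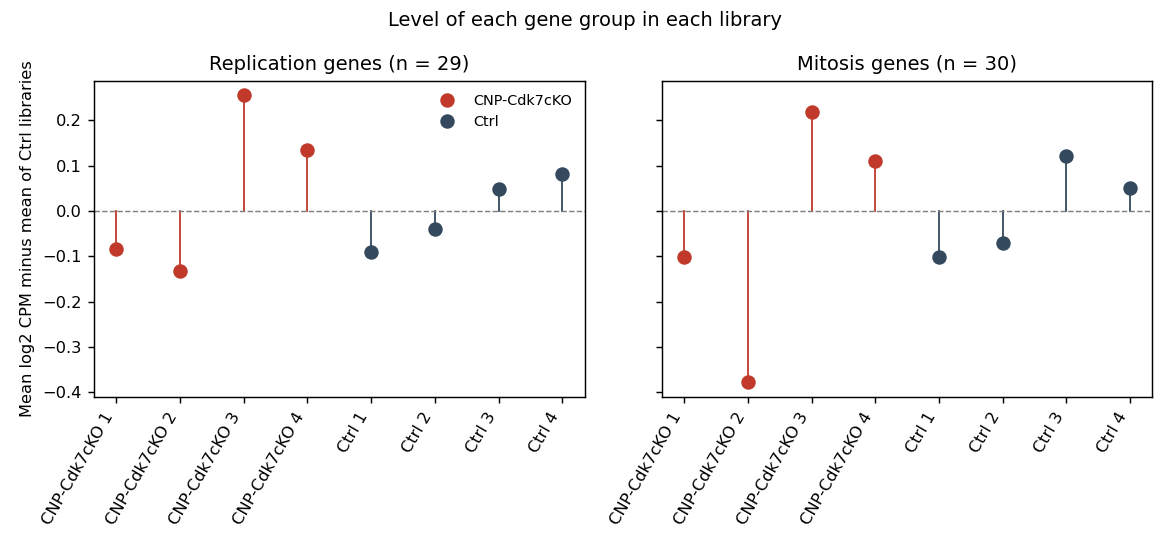
Level of the 29 replication genes (left) and 30 mitosis genes (right) in each library, as mean log2 CPM minus the mean of the 4 Ctrl libraries (dashed line). CNP-Cdk7cKO 2 is lowest in both panels and lies further below Ctrl for mitosis (-0.38) than for replication (-0.13), while CNP-Cdk7cKO 3 is highest in both.

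The summed mitosis genes came to 751, 618, 935 and 870 CPM in CNP-Cdk7cKO, against 753, 772, 880 and 841 CPM in Ctrl. The summed replication genes came to 644, 614, 806 and 748 CPM in CNP-Cdk7cKO, against 633, 658, 682 and 718 CPM in Ctrl. The highest library exceeded the lowest 1.51-fold in CNP-Cdk7cKO and 1.17-fold in Ctrl for mitosis, and 1.31-fold in CNP-Cdk7cKO and 1.13-fold in Ctrl for replication. Counting error of these sums was under 1% in every library, being largest at 0.98% for the replication genes of Ctrl 1.

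The same libraries were low or high gene after gene. CNP-Cdk7cKO 2 was the lowest library of its group for 30 of 30 mitosis genes and 19 of 29 replication genes, against 24.4% of all tested genes. CNP-Cdk7cKO 3 was the highest of its group for 22 mitosis genes and 25 replication genes, against 25.4% of all genes. CNP-Cdk7cKO 1 and 2 were the lowest pair of their group for 28 mitosis genes and 27 replication genes, against 23.4% of all genes. Within Ctrl, libraries 1 and 2 were the lowest pair for 24 mitosis genes and 13 replication genes, against 19.1% of all genes. The genes share libraries, so these counts are not independent observations.

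Set against the whole Ctrl range, CNP-Cdk7cKO 2 was below every Ctrl library for 26 of 30 mitosis genes and 13 of 29 replication genes, against 27.5% of all genes. CNP-Cdk7cKO 1 was below for 11 mitosis genes and 11 replication genes, against 26.7% of all genes. CNP-Cdk7cKO 3 was above every Ctrl library for 24 mitosis genes and 23 replication genes, against 28.5% of all genes, and below for 0. CNP-Cdk7cKO 4 was above for 15 mitosis genes and 16 replication genes, against 32.1% of all genes. For 34 of the 59 genes, 22 of them mitosis genes, the CNP-Cdk7cKO values spanned the whole Ctrl range, against 16.4% of all genes.

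**Figure D5:**
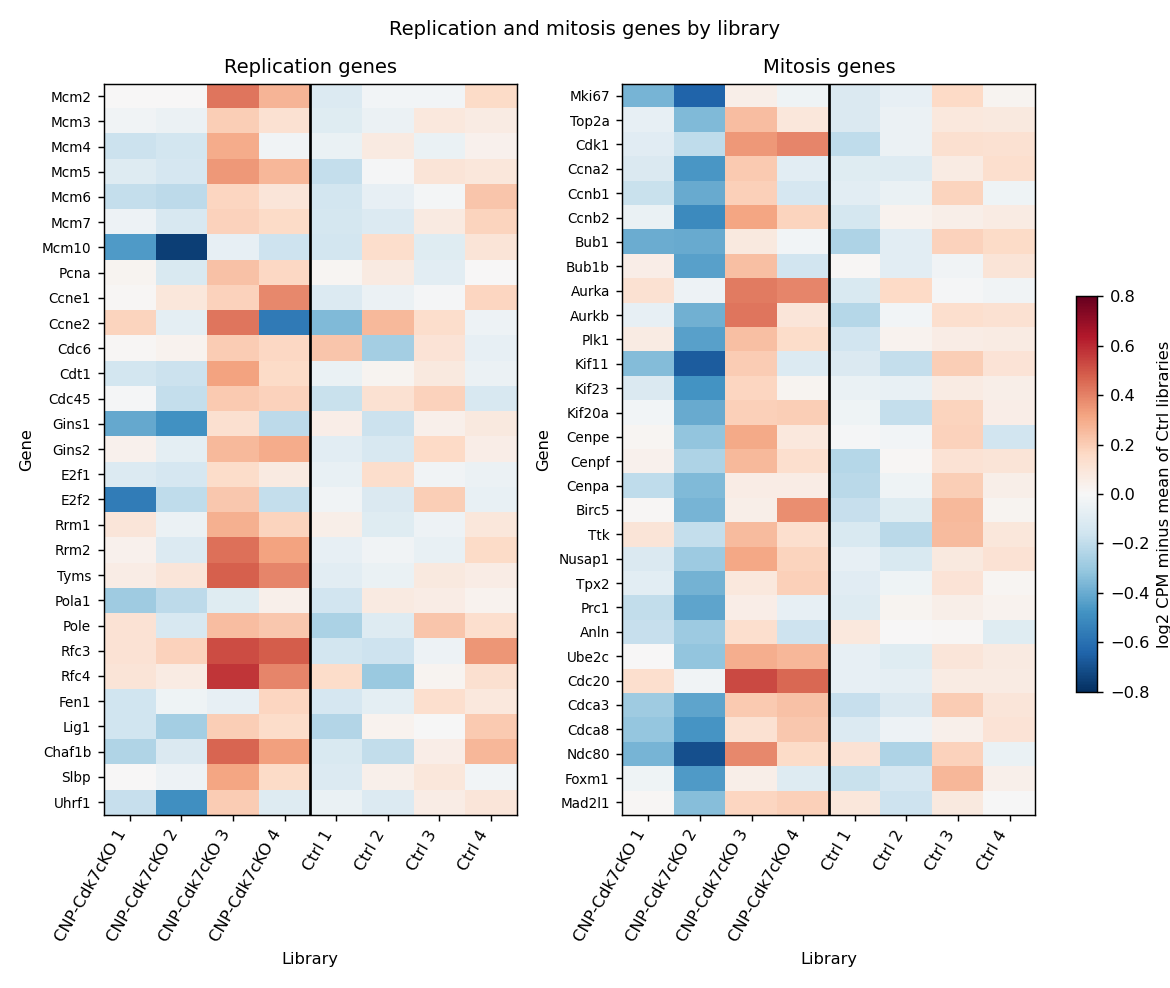
Log2 CPM of each replication gene (left) and mitosis gene (right) in each library minus the gene's mean in the 4 Ctrl libraries, red above and blue below. The columns of CNP-Cdk7cKO 3 and 4 are mostly red and those of CNP-Cdk7cKO 1 and 2 mostly blue, with the deepest blue in the mitosis genes of CNP-Cdk7cKO 2, while the Ctrl columns are pale.

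The SD of log2 CPM was larger in CNP-Cdk7cKO than in Ctrl for 29 of 30 mitosis genes and 26 of 29 replication genes, against 57.3% of all tested genes. The exceptions were Ttk among mitosis genes, and Cdc6, Pole and Rfc3 among replication genes. The median SD was 0.27 in CNP-Cdk7cKO and 0.12 in Ctrl for mitosis genes, and 0.21 in CNP-Cdk7cKO and 0.13 in Ctrl for replication genes. Without CNP-Cdk7cKO 2 the SD of the mitosis level was 0.16 in CNP-Cdk7cKO and 0.10 in Ctrl, and the SD was still larger in CNP-Cdk7cKO for 23 of 30 genes. For replication genes that count was 24 of 29 without CNP-Cdk7cKO 2. With 4 libraries a group the difference in spread was not tested.

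The gap between the phases was widest in CNP-Cdk7cKO 2. The mitosis level minus the replication level was -0.02, -0.25, -0.04 and -0.02 in CNP-Cdk7cKO, against -0.01, -0.03, 0.07 and -0.03 in Ctrl. For these members CNP-Cdk7cKO 2 held the least mitosis RNA for its replication RNA, and Ctrl 3 the most. In the further genes of both phases described below, the same difference was 0.03, -0.05, 0.08 and 0.02 in CNP-Cdk7cKO, against -0.00, -0.04, 0.04 and 0.01 in Ctrl, so the gap in CNP-Cdk7cKO 2 was small there and close to that of Ctrl 2.

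Markers of the cells of the nerve were read beside this order of libraries. By edgeR, 5 of 7 Schwann cell markers and 12 of 12 muscle markers were lower in CNP-Cdk7cKO. Of fibroblast and macrophage markers, 2 of 8 and 3 of 8 were higher (25% and 37.5%). Over all genes 5.07% were called higher and 6.6% lower. Of 6 mural cell markers 1 was called higher and 1 lower, and 0 of 8 endothelial and 0 of 5 perineurial markers were called. The summed Schwann cell markers were 2969.99, 2899, 3192 and 2952 CPM in CNP-Cdk7cKO, against 4219, 3999.55, 3921 and 4114 CPM in Ctrl. Summed endothelial markers were 302, 292, 348 and 333 CPM in CNP-Cdk7cKO, against 297, 371, 395 and 321 CPM in Ctrl. Summed mural cell markers were 562, 532, 622 and 630.1 CPM in CNP-Cdk7cKO, against 528, 601, 634 and 554 CPM in Ctrl. Endothelial and mural markers were lowest in CNP-Cdk7cKO 2 and highest in CNP-Cdk7cKO 3 and 4 among CNP-Cdk7cKO libraries. Perineurial markers went the other way, at 494, 475, 436 and 419 CPM in CNP-Cdk7cKO, against 560, 544, 453 and 441 CPM in Ctrl. They were lowest in CNP-Cdk7cKO 3 and 4 of their group. Summed macrophage markers were 405, 444, 485 and 521 CPM in CNP-Cdk7cKO, against 343, 393, 389 and 447 CPM in Ctrl. Summed fibroblast markers were 48392, 51372, 45230 and 45400 CPM in CNP-Cdk7cKO, against 44807, 43281, 39438 and 39444 CPM in Ctrl. The 12 muscle markers were 271, 612, 98.2 and 188 CPM in CNP-Cdk7cKO, against 548, 1837, 1103 and 5412 CPM in Ctrl. CNP-Cdk7cKO 2, lowest for mitosis genes, was lowest for endothelial markers and highest of its group for fibroblast and muscle markers. Summed erythroid markers were 984, 1103, 1469 and 933 CPM in CNP-Cdk7cKO, against 745, 2017, 1737 and 2164 CPM in Ctrl, and were highest in CNP-Cdk7cKO 3 of its group. Summed adipocyte markers were 26.6, 33.0, 55.1 and 80.6 CPM in CNP-Cdk7cKO, against 51.2, 84.8, 179.8 and 163 CPM in Ctrl, and were highest in CNP-Cdk7cKO 3 and 4 of their group. Lymphocyte and mast cell markers summed to between 5.61 and 12.6 CPM in CNP-Cdk7cKO and between 10.2 and 12.6 CPM in Ctrl. Markers of myoblasts, the precursors of muscle, were scarce, at 0.78, 1.69, 0.60 and 1.13 CPM in CNP-Cdk7cKO. In Ctrl they summed to 3.00, 4.50, 4.18 and 24.3 CPM, and edgeR called 2 of the 3 tested as lower in CNP-Cdk7cKO. The part of these cells in the spread was not tested.

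Further genes of the same pathways were examined beside the 59. EdgeR called 5.07% of all genes higher and 6.6% lower, and 0 of 40 further replication genes in either direction. An unadjusted p under 0.05 was met by 26.1% of all genes and by 1 of these 40 (2.5%). Their most abundant members were Dnmt1, the maintenance DNA methyltransferase, at 69.8, 56.8, 69.0 and 60.6 CPM in CNP-Cdk7cKO, against 54.6, 61.4, 79.9 and 73.9 CPM in Ctrl, and Rpa1, which binds single-stranded DNA. Their median log2 fold change was 0.00, and their level by library was -0.07, -0.21, 0.17 and 0.10 in CNP-Cdk7cKO, against -0.09, -0.02, 0.05 and 0.07 in Ctrl. The 54 further mitosis genes had levels of -0.03, -0.27, 0.24 and 0.12 in CNP-Cdk7cKO, against -0.09, -0.07, 0.08 and 0.07 in Ctrl. CNP-Cdk7cKO 2 was again the lowest library and CNP-Cdk7cKO 3 the highest.

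Of these 54, edgeR called 2 as higher (3.7%, against 5.07% of all genes) and 0 as lower (against 6.6%), with 7.41% at an unadjusted p under 0.05, against 26.1% of all genes. Psrc1, a microtubule-binding spindle protein, had 45.3, 38.7, 35.3 and 42.0 CPM in CNP-Cdk7cKO, against 10.4, 11.9, 13.6 and 10.2 CPM in Ctrl. The groups were far apart, with a log2 fold change of 1.80 ± 0.10 SE (edgeR adjusted p = 6.76e-06). Gtse1, a microtubule-binding protein of G2 and mitosis, had 19.7, 18.7, 17.6 and 20.4 CPM in CNP-Cdk7cKO, against 8.81, 7.03, 9.95 and 9.61 CPM in Ctrl. Again no library overlapped, with a log2 fold change of 1.11 ± 0.11 SE (edgeR adjusted p = 0.000181). For both genes CNP-Cdk7cKO 3, the library with the most replication and mitosis RNA, had the lowest value of its group. Both are also known in mouse as genes that p53 induces.

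Regulators of G1, the phase before replication, included called genes. Of 14 tested, edgeR called 8 as higher and 2 as lower in CNP-Cdk7cKO (57.1% and 14.3%, against 5.07% and 6.6% of all genes). This list was chosen with earlier results of these data known, so its shares describe the list and are no test of G1 regulators. Ccnd1, the cyclin that starts G1 progression, had 871, 881, 758 and 766 CPM in CNP-Cdk7cKO, against 486, 459, 479.9 and 479.7 CPM in Ctrl. The groups were apart and Ctrl varied little (log2 fold change 0.78 ± 0.06 SE, edgeR adjusted p = 3.95e-05). Its kinase Cdk6 had 79.6, 81.7, 84.9 and 81.3 CPM in CNP-Cdk7cKO, against 58.3, 57.7, 61.7 and 60.5 CPM in Ctrl (log2 fold change 0.46 ± 0.04 SE, edgeR adjusted p = 0.000157). Ccnd3 and Ccng1, the cyclin G1 induced by p53, were also higher, with log2 fold changes of 0.36 ± 0.04 and 0.84 ± 0.11 SE.

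Cdkn1a, the p21 inhibitor of cyclin-dependent kinases, had 629, 673, 507 and 589 CPM in CNP-Cdk7cKO, against 457, 408, 422 and 369.9 CPM in Ctrl. It did not overlap between the groups (log2 fold change 0.53 ± 0.09 SE, edgeR adjusted p = 0.00299), and CNP-Cdk7cKO 3 was the lowest and CNP-Cdk7cKO 2 the highest of its group. The genes that fell were Cdk2, the kinase of S phase, and Cdkn1c, another inhibitor. Cdk2 had 33.4, 34.5, 43.3 and 40.9 CPM in CNP-Cdk7cKO, against 46.7, 49.0, 48.3 and 49.6 CPM in Ctrl, so that it was lowest in the CNP-Cdk7cKO libraries with the least replication RNA. Its log2 fold change was -0.35 ± 0.08 SE (edgeR adjusted p = 0.018). Cdkn1c had a log2 fold change of -0.26 ± 0.05 SE (edgeR adjusted p = 0.00798).

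With sex as a covariate the calls of Cdkn1a, Cdk2 and Cdkn1c were lost (edgeR adjusted p = 0.183, 0.314 and 0.199), with log2 fold changes of 0.39, -0.30 and -0.23. With a muscle covariate they were lost too (edgeR adjusted p = 0.112, 0.137 and 0.241), with log2 fold changes of 0.55, -0.49 and -0.26. The calls of Ccnd2, Cdk4 and Btg2 were lost with the sex covariate as well (edgeR adjusted p = 0.0869, 0.218 and 0.104). Their log2 fold changes were then 0.59, 0.24 and 0.51, against 0.53, 0.20 and 0.63 without it. Each was also lost with female libraries alone, and Cdk4 and Btg2 with the muscle covariate (edgeR adjusted p = 0.455 and 0.138). Cdk4 was lost too without CNP-Cdk7cKO 3 (0.0717) and without Ctrl 1, 2 or 3 (0.0659, 0.0864 and 0.0611), and was called in 10 of the 17 alternatives. The call of Cdk2 was also lost without CNP-Cdk7cKO 2 (0.0501) or Ctrl 2 (0.0519), that of Ccnd3 with the muscle covariate (0.0742) or female libraries alone (0.11), and that of Ccng1 with female libraries alone (0.0517). The calls of Ccnd1, Cdk6, Gtse1 and Psrc1 held in all 17 alternatives. Of 12 subunits of DREAM and its relatives, edgeR called 0 as higher and 1 as lower (8.33%, close to the 6.6% of all genes). The gene called lower was Tfdp2, a partner of E2F factors. Tfdp2 had 24.8, 22.2, 23.4 and 22.8 CPM in CNP-Cdk7cKO, against 27.2, 26.5, 25.3 and 28.4 CPM in Ctrl. Its log2 fold change of -0.21 ± 0.06 SE (edgeR adjusted p = 0.042) was called in 4 of the 17 alternatives.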

How the data were processed

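Per the labels' protocols, RNA was column-purified with DNase and made into stranded poly(A) libraries. The table deposited by the authors holds an estimated count per gene and library, from STAR and Salmon on GRCm38 per the submitters' processing notes. The annotation release and the strand setting of counting were not given in the sources used here. Values were rounded to whole numbers, since 8.29% carried a fraction.

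Genes were filtered with filterByExpr of edgeR 4.0.16 (minimum count 10, minimum total 15; R 4.3.3) and scaled by the trimmed mean of M values (TMM). The groups were compared by its quasi-likelihood test, with p-values adjusted by Benjamini-Hochberg over 15056 genes and a threshold of 0.05. Sums of Schwann cell markers leave out a gene that is not reported here. Levels by phase used log2 CPM with a prior count of 2. The members and lists were chosen with earlier results of these data known. All members could be named. Each further list gave up to 4 called genes per direction, by smallest p, or its 2 most abundant genes where none was called, and Cdkn1a and Ccnd1 were always named. Beyond this rule, the called genes Ccnd2, Cdk4 and Btg2 were named to show where their calls were lost. Fold changes are given for Pcna, Mki67, the 5 members of each phase with the smallest p, and called further genes. Replicates of a group differed by more than counting error (chi-square over degrees of freedom, 3.86 to 17.6). Exon lengths are unions from GENCODE vM21 on GRCm38. Exons of 17 members overlap a gene on the opposite strand, 8 of them over at least 10% of exon length (Ccne2, Gins2, Rfc4, Fen1, Ccna2, Kif20a, Prc1 and Ube2c), so their counts are less certain.

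Alternatives were RLE factors, other count filters, limma-voom 3.58.1, DESeq2 1.42.0, the replicate block, sex or muscle covariates, female libraries alone and each library left out. The spread with each library left out was chosen after seeing the data. Of the steps, only the comparison of the 2 groups by edgeR, DESeq2 and limma-voom was tried on simulated counts with planted changes. There edgeR called 18% of planted 1.25-fold changes, 62% of 1.5-fold changes and 88% of 2-fold changes. The absence of calls therefore says little about changes near 1.25-fold.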

Additional observations from a re-analysis of the deposited data

Results flagged for a closer look

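Of 152 groups of 4 libraries examined, 4 held a library that stood apart from its group by Dixon's 95% criterion, which chance meets in about 1 group in 20. The difference between mitosis and replication levels was -0.25 in CNP-Cdk7cKO 2, with the other CNP-Cdk7cKO libraries between -0.04 and -0.02. Gins1 had 3.72 CPM in Ctrl 2, with the other Ctrl libraries between 4.32 and 4.44 CPM. E2f1 had 23.4 CPM in Ctrl 2, with the others between 20.4 and 20.8 CPM. Rrm2 had 33.5 CPM in Ctrl 4, with the others between 28.7 and 29.5 CPM.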

How the results depend on the processing

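The absence of calls held for both phases in all alternatives but 3. It says little for the muscle and sex covariates, which called far fewer genes in all, or for female libraries alone, with 1 Ctrl library. Over all genes the muscle covariate left 103 higher and 145 lower, against 763 and 994 in the main fit. The replicate block gave 1 replication gene (Rfc3, edgeR adjusted p = 0.0476) and 1 mitosis gene (Cdc20, edgeR adjusted p = 0.0479). Leaving out a library gave between 0 and 1 called replication genes (Rfc3 without Ctrl 4) and between 0 and 1 called mitosis genes (Cdc20 without CNP-Cdk7cKO 2). As deviations from group means over genes, same-numbered libraries correlated at 0.01 to 0.13 and differently numbered ones at -0.16 to 0.17. These values gave no clear sign of pairing by replicate number but cannot exclude it. The median log2 fold change ranged between -0.03 with the muscle covariate and 0.16 with the sex covariate for replication, and between -0.24 with the muscle covariate and 0.09 without CNP-Cdk7cKO 2 for mitosis. With the muscle covariate Pcna (-0.10) and Aurka (-0.0062) changed sign. Of the 59 genes, 39 changed sign in at least 1 of 17 alternatives, all with a log2 fold change no larger than 0.23 in size. The cause was not tested. Sex and group are almost confounded, since 1 Ctrl library is female, and the sex covariate left 78 genes higher and 166 lower over all genes. The 59 genes had 61 to 1743 counts per library, and precision was set by the spread between 4 libraries a group.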
